A study of Mus musculus with 6 samples.

Results

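The genes described here encode sialyl-, galactosyl- and fucosyltransferases and related chain-extending and branching enzymes, and are the rows of the deposited expression table whose symbol begins with St3gal, St6gal, St8sia, B3gnt, B4galt, Fut or Gcnt followed by a digit or the letter n, 50 of 23235 rows. They were chosen by symbol, but the family was proposed with this table's LPS+Dex to LPS ratios in view. Those ratios and the calls that rest on them are therefore given as a description of the table, and nothing is supported with them. Of the 50 genes, 31 had a test in the authors' deposited table. The other 19 had none for low signal. No row that joins several symbols held a gene of the family.

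Cells coat their surface proteins and lipids with sugar chains, and the ends of these chains are built by sialyl-, galactosyl- and fucosyltransferases of the Golgi apparatus. A galactose is added to an N-acetylglucosamine, the pair can be repeated into longer chains or branched, and a sialic acid or a fucose usually caps the end. On macrophages and other leukocytes these ends are read by siglecs, selectins and galectins, families of lectins that take part in adhesion and in the damping of immune signals.

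Primary macrophages were grown from bone marrow in L-929 conditioned medium, and both groups came from mice that carry 2 copies of GRdim, a form of the glucocorticoid receptor with impaired dimerization. The first group, LPS+Dex (3 samples), had 1 µM dexamethasone (Dex, a synthetic glucocorticoid) overnight and then lipopolysaccharide (LPS, a bacterial cell wall component) for 6 h, and the second, LPS (3 samples), had the 6 h of LPS without Dex, as the sample titles give it; the growth description in the labels is the same for all samples and mentions Dex. No macrophages with an intact receptor and none left without LPS enter the comparison. The labels give neither the animals' age nor whether replicates stem from different animals or cultures. The table holds 1 value per gene and group, in FPKM (sequenced fragments relative to transcript length and to the size of the library), so no spread between samples can be given, no test on samples was run, and the order of neighbouring levels cannot be set against an error. The depth of the libraries is unknown.

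A gene is said to have risen or fallen where the authors' deposited table gives a q under 0.05. Log2 ratios set LPS+Dex over LPS, and the implied standard error (SE) of one is the absolute log2 ratio divided by the absolute deposited test statistic. In bulk RNA, fewer cells of a type and less RNA per cell cannot be told apart. All 7 tested markers of the macrophage list stood at 29 FPKM or more in both groups, of which 3 rose, 1 fell and 3 were not called. Csf1r rose to 168 FPKM in LPS+Dex, against 142 FPKM in LPS, and Cd68 and Itgam also rose. Emr1 fell to 388 FPKM in LPS+Dex, against 458 FPKM in LPS, and Cd14, Fcgr1 and Mertk were not called. With the trend of ratios on level removed, as described below, Emr1 lost its call (log2 −0.053) and Cd14 was called higher (log2 0.38). Markers of B cells, erythroid cells, mast cells and stromal cells were low by comparison. The summed level of 5 B cell markers was 0.149 FPKM in LPS+Dex and 0.145 FPKM in LPS. That of 4 erythroid markers was 0.0239 FPKM in LPS+Dex and 0.0147 FPKM in LPS. The 4 mast cell and basophil markers summed to 0.0281 FPKM in LPS+Dex and 0.0273 FPKM in LPS. The 5 stromal markers summed to 2.68 FPKM in LPS+Dex and 2.33 FPKM in LPS, most of it from Pdgfrb, which was not called, and Dcn rose. Other markers also moved between the groups. The 6 neutrophil markers found summed to 63.0 FPKM in LPS+Dex and 56.6 FPKM in LPS, where S100a8 rose, to 40.9 FPKM in LPS+Dex against 27.5 FPKM in LPS, and S100a9, Ngp and Camp fell. The 6 dendritic cell markers summed to 0.815 FPKM in LPS+Dex and 3.30 FPKM in LPS, with Ccr7 and Xcr1 lower. The 6 T and NK cell markers summed to 1.91 FPKM in LPS+Dex and 5.01 FPKM in LPS, almost all of it Lck, with Cd3g and Nkg7 listed at 0 in both groups. The part of these cells in the values below was not tested.

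The 6 sialyltransferase genes called were all lower in LPS+Dex, and the galactosyl- and N-acetylglucosaminyltransferase genes called lay on both sides. Of the 31 tested genes, 6 rose (19.4%), 12 fell (38.7%) and 13 were not called, where over all 11755 tested genes 17.7% rose and 25.2% fell; together 58.1% of the family and 42.9% of all tested genes were called. The median log2 ratio of the 31 genes was −0.27, against −0.011 over all tested genes. The family's median was −0.17 over genes with at least 1 FPKM in a group, against −0.025 over all tested genes at that level. On the log2(FPKM + 1) scale the family's median was −0.081. The largest rise was that of B3gnt8, at 4.15 FPKM in LPS+Dex and 1.75 FPKM in LPS. B4galt4 had the largest fall among genes with at least 1 FPKM in a group, at 0.834 FPKM in LPS+Dex and 1.70 FPKM in LPS. Most changes were modest: the called genes changed by a median of 0.48 on the log2 scale, 6 of the 18 by at least 1.5-fold and 3 by at least 2-fold. Closest to the threshold were Fut11 on the called side (q = 0.00215 in the authors' deposited table) and St6galnac6 on the other (q = 0.0650 in the same table).

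**Figure D1:**
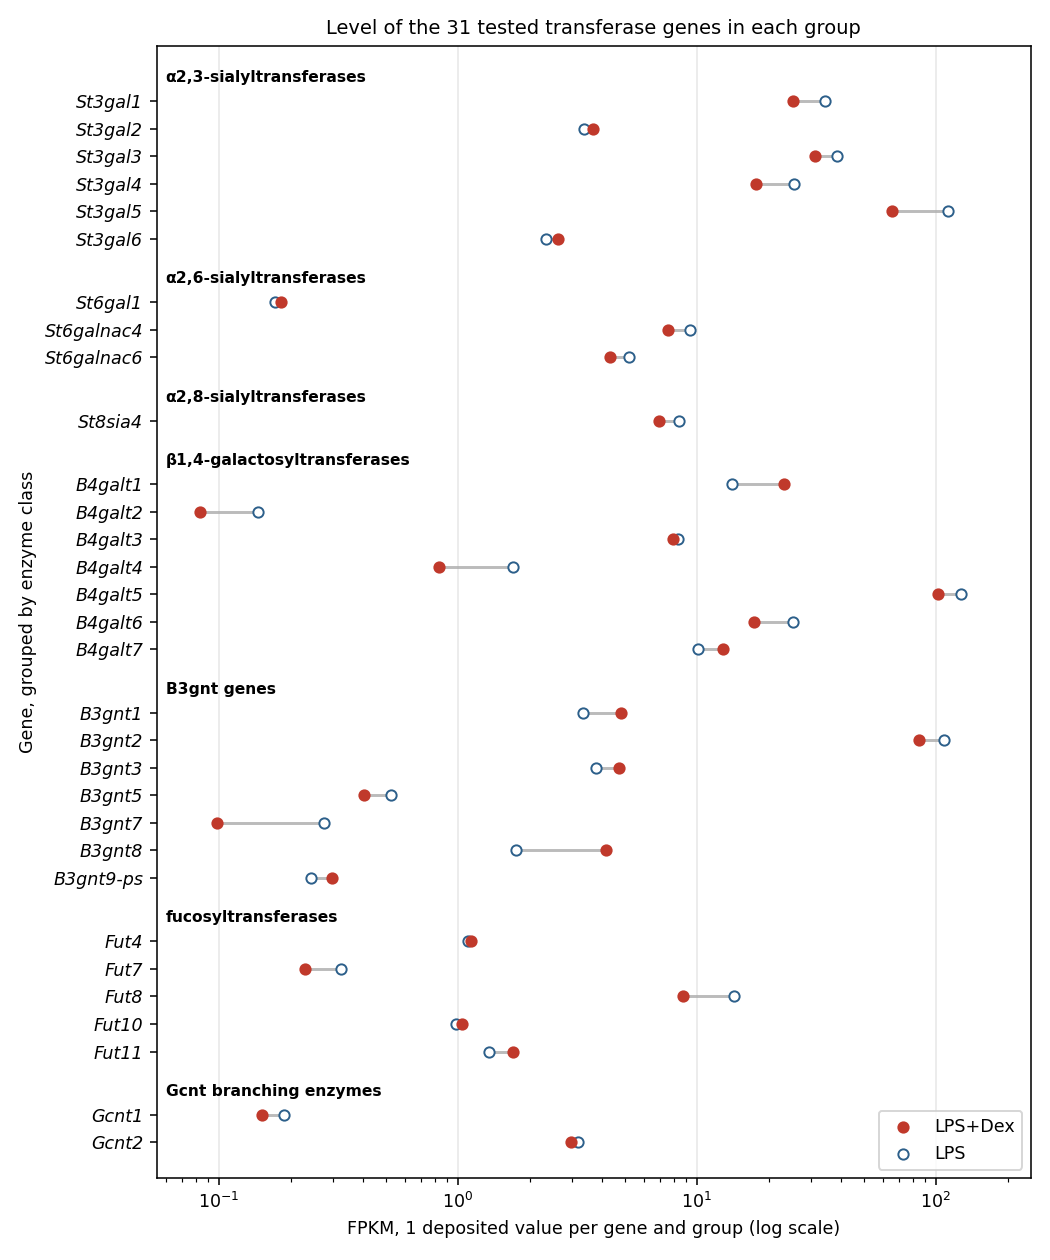
FPKM of the 31 tested genes in LPS+Dex (filled) and LPS (open) on a log axis, grouped by enzyme class; each point is the 1 deposited value of a group, without error. The levels span from 0.0831 FPKM (B4galt2 in LPS+Dex) to 127 FPKM (B4galt5 in LPS), and B4galt5, B3gnt2 and St3gal5 lead in both groups.

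Levels within the family differed by far more than the groups did. Lactosylceramide and poly-N-acetyllactosamine enzymes and a sialyltransferase led the order. B4galt5 stood at 102 FPKM in LPS+Dex and 127 FPKM in LPS, and B3gnt2 at 84.8 FPKM in LPS+Dex and 109 FPKM in LPS. The sialyltransferase gene St3gal5 stood at 65.3 FPKM in LPS+Dex and 112 FPKM in LPS. These 3 genes made up 56.7% of the family's summed FPKM in LPS+Dex and 61.5% in LPS. The summed level was 445 FPKM in LPS+Dex and 567 FPKM in LPS. All 10 genes that reached 10 FPKM in a group were called, 8 of them lower and 2 higher; among all tested genes at that level 39.3% were called lower and 15.7% higher. Of the 21 tested genes under 10 FPKM, 4 rose, 4 fell and 13 were not called. Over all tested genes of any level 17.7% rose and 25.2% fell. Those any-level shares include the genes of at least 10 FPKM, of which 39.3% fell, so they are not the matching shares for these 21. The shares over all genes under 10 FPKM were not computed, so this count is a description only.

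The promoters of 4 genes are shown because these genes had the largest rise (B3gnt8) and fall (B4galt4) from at least 1 FPKM and, chosen after the values were seen, the largest rise (B4galt1) and fall (St3gal5) among genes of at least 10 FPKM. Each runs 5′ to 3′ on the gene's strand from upstream of the RefSeq start to shortly after it (GRCm38.p6), a build other than the mm9 of the expression table. Capitals mark GC boxes (GGGCGG on either strand) and, in B3gnt8, its 1 match to the NF-kB consensus. The windows are chr7:25627374-25627673 on the plus strand for B3gnt8, chr4:40853935-40854234 on the minus strand for B4galt1, chr16:38742009-38742308 on the plus strand for B4galt4 and chr6:72097358-72097657 on the plus strand for St3gal5.
B3gnt8: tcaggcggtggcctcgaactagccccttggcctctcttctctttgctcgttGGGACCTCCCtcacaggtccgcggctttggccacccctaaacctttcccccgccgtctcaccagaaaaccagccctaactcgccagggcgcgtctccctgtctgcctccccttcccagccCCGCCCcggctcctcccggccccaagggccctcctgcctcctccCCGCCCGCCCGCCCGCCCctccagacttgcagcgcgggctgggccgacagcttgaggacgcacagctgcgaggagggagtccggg
B4galt1: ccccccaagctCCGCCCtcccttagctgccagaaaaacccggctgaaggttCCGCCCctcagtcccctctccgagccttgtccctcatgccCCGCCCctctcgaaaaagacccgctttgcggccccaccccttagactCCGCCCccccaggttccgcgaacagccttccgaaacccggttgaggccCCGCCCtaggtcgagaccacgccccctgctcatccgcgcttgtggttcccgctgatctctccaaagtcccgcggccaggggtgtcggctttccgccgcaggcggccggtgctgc
B4galt4: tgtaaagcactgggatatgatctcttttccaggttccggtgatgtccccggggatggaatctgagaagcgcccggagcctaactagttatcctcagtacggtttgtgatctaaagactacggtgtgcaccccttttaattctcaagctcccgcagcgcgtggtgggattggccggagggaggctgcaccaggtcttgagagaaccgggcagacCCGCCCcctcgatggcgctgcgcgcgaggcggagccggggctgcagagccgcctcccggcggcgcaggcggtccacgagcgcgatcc
St3gal5: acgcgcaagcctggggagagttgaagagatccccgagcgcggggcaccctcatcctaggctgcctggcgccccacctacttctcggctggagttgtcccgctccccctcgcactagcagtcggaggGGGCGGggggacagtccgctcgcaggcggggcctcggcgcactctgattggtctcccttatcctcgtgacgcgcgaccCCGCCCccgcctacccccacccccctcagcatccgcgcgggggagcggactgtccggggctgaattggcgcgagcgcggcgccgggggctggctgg

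All 4 windows are rich in G and C, from 62.7% in B4galt4 to 72.7% in St3gal5. GC boxes, the sites of Sp1-type factors, numbered 5 in B3gnt8, 5 in B4galt1, 1 in B4galt4 and 2 in St3gal5, with overlapping matches counted. No glucocorticoid receptor half-site (AGAACA on either strand) lies in any of the 4. Of the 50 genes, 35 had a RefSeq promoter, in 47 windows. The half-site was found in 8 of the 47, the windows of 7 genes that include B3gnt3 (called higher) and Fut8 (called lower), and in 19.0% of all 32851 promoters of the table. The full palindromic glucocorticoid response element was in none of the 47 and in 0.0091% of all promoters. A GC box was in 31 of the 47 and in 35.7% of all promoters, which include those of noncoding genes. The NF-kB consensus was in 4 of the 47 (B3gnt4, B3gnt8, B4galt7 and St3gal6) and in 8.46% of all, AP-1 (TGANTCA) in 2 (Gcnt4 and St6gal1) and in 7.81% of all, and a TATA box (TATAAA) in 1, at Gcnt1, and in 13.6% of all. The windows of the family held a median of 18 CpG dinucleotides, against 7 over all promoters. Both strands were searched for every motif. These matches describe letters in a window, not binding.

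The α2,3-sialyltransferases, which place a sialic acid on galactose, were the most abundant sialyltransferases. All 6 were tested, 4 fell and 2 were not called, and their summed level was 146 FPKM in LPS+Dex and 217 FPKM in LPS. St3gal5 makes the ganglioside GM3 from lactosylceramide (chromosome 6, 72047607 to 72104564 in mm9). It fell to 65.3 FPKM in LPS+Dex, against 112 FPKM in LPS (log2 −0.78, implied SE 0.050), the largest difference of the class. It supplied 44.8% of the class's summed FPKM in LPS+Dex and 51.9% in LPS. St3gal4, an enzyme of sialyl Lewis x on selectin ligands, fell to 17.7 FPKM in LPS+Dex, against 25.5 FPKM in LPS (log2 −0.53, implied SE 0.058). St3gal1, which caps the core 1 O-glycan, fell to 25.3 FPKM in LPS+Dex, against 34.5 FPKM in LPS (log2 −0.45, implied SE 0.048). St3gal3, which acts on N-acetyllactosamine of both chain types, fell to 31.2 FPKM in LPS+Dex, against 38.4 FPKM in LPS (log2 −0.30, implied SE 0.061). The 4 genes that fell are the abundant ones of the class, and each reached 10 FPKM in a group. At that level 39.3% of all tested genes were called lower, against 25.2% at any level. St3gal2, which sialylates gangliosides and core 1 O-glycans, stood at 3.67 FPKM in LPS+Dex and 3.38 FPKM in LPS (log2 0.12, implied SE 0.065) and was not called. St3gal6, which also contributes to selectin ligands, stood at 2.61 FPKM in LPS+Dex and 2.35 FPKM in LPS (log2 0.16, implied SE 0.11) and was not called.

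Of the 8 α2,6-sialyltransferases 3 were tested, of which 1 fell and 2 were not called, where 25.2% of all tested genes fell. St6gal1, which caps N-glycans and whose product is the ligand of Cd22, stood at 0.181 FPKM in LPS+Dex and 0.171 FPKM in LPS (log2 0.084, implied SE 0.41) and was not called. Its relative St6gal2 was listed at 0 in both groups. Of the St6galnac genes, whose enzymes sialylate O-glycans and gangliosides, St6galnac4 fell to 7.60 FPKM in LPS+Dex, against 9.32 FPKM in LPS (log2 −0.29, implied SE 0.059). St6galnac6 stood at 4.32 FPKM in LPS+Dex and 5.18 FPKM in LPS (log2 −0.26, implied SE 0.12) and was not called. Both share 1 locus in the table (chromosome 2, 32443010 to 32476324 in mm9), so their reads may not be fully separated. The RefSeq promoters of both lie on the plus strand, so the strand of a read would not tell them apart. The remaining 4 St6galnac genes had no test and did not exceed 0.0209 FPKM.

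Of the α2,8-sialyltransferases, which join sialic acids to each other, St8sia4 alone had a test. This polysialic acid synthase gene fell to 6.94 FPKM in LPS+Dex, against 8.39 FPKM in LPS (log2 −0.27, implied SE 0.069). The ganglioside GD3 synthase gene St8sia1 stood at 0.00456 FPKM in LPS+Dex and 0.00566 FPKM in LPS. St8sia6 stood at 0.00447 FPKM in LPS+Dex and 0.0613 FPKM in LPS, the highest value of any gene of the family without a test. St8sia2 and St8sia3 were listed at 0 in both groups, and St8sia5 at 0 in LPS and 0.00360 FPKM in LPS+Dex.

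**Figure D2:**
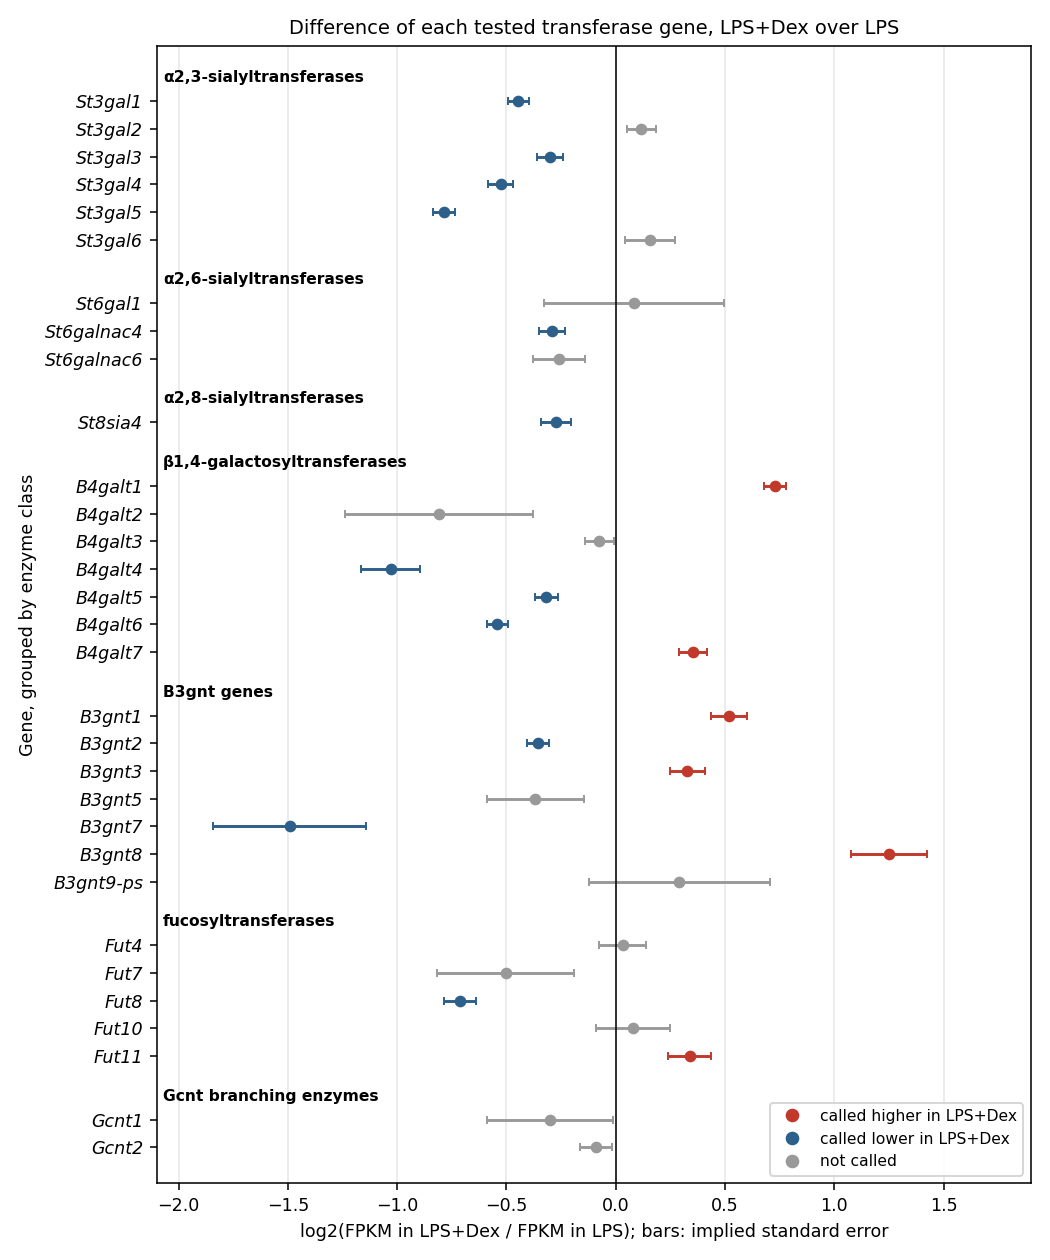
log2 ratio of LPS+Dex over LPS for the 31 tested genes by enzyme class, with the implied SE as bars; red genes were called higher, blue genes lower and grey genes were not called in the authors' deposited table. No sialyltransferase was called higher, whereas B4galt and B3gnt genes lie on both sides of 0.

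The β1,4-galactosyltransferase genes split. All 7 were tested, of which 2 rose, 3 fell and 2 were not called, where 17.7% of all tested genes rose and 25.2% fell. B4galt1, the main galactosyltransferase of N-glycans and the catalytic part of lactose synthase (chromosome 4, 40751635 to 40801031 in mm9), rose to 23.2 FPKM in LPS+Dex, against 14.0 FPKM in LPS (log2 0.73, implied SE 0.050). B4galt7, which adds the first galactose of the proteoglycan linker, rose to 12.9 FPKM in LPS+Dex, against 10.1 FPKM in LPS (log2 0.35, implied SE 0.064). B4galt5, the chief lactosylceramide synthase, fell to 102 FPKM in LPS+Dex, against 127 FPKM in LPS (log2 −0.32, implied SE 0.053). B4galt6, the other lactosylceramide synthase, fell to 17.4 FPKM in LPS+Dex, against 25.3 FPKM in LPS (log2 −0.54, implied SE 0.048). B4galt5 was 4.40 times as abundant per length as B4galt1 in LPS+Dex and 9.09 times in LPS. B4galt4, which prefers sulfated N-acetylglucosamine as in keratan sulfate, fell to 0.834 FPKM in LPS+Dex, against 1.70 FPKM in LPS (log2 −1.03, implied SE 0.13; −0.56 on the log2(FPKM + 1) scale, which tempers changes of scarce genes). B4galt3 stood at 7.93 FPKM in LPS+Dex and 8.35 FPKM in LPS (log2 −0.075, implied SE 0.066) and B4galt2 at 0.0831 FPKM in LPS+Dex and 0.146 FPKM in LPS (log2 −0.81, implied SE 0.43), neither of them called. B4galt2 and B4galt3 share the longest identical stretch among 49 coding sequences of the family, 35 bases, which is shorter than the 101-base reads. Untranslated regions and the pseudogene Fut4-ps1 were not compared, so this does not show whether any reads are shared.

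The B3gnt genes went both ways, with 3 of 7 tested genes higher, 2 lower and 2 not called. Among all tested genes 17.7% rose and 25.2% fell. B3gnt2, the main enzyme that extends poly-N-acetyllactosamine, fell to 84.8 FPKM in LPS+Dex, against 109 FPKM in LPS (log2 −0.36, implied SE 0.051). B3gnt8, whose protein forms a complex with B3gnt2 and raises its activity (known from human enzymes), rose to 4.15 FPKM in LPS+Dex, against 1.75 FPKM in LPS (log2 1.25, implied SE 0.17; 0.91 on the log2(FPKM + 1) scale). B3gnt2 was 20.4 times as abundant per length as B3gnt8 in LPS+Dex and 62.2 times in LPS. B3gnt3, which extends core 1 O-glycans, rose to 4.73 FPKM in LPS+Dex, against 3.77 FPKM in LPS (log2 0.33, implied SE 0.079). The row B3gnt1 (chromosome 19, 5038826 to 5041134 in mm9) carries a former name. RefSeq lists it on that chromosome as B4gat1, a glucuronyltransferase of the dystroglycan sugar chain and not an extender of N-acetyllactosamine. It rose to 4.81 FPKM in LPS+Dex, against 3.35 FPKM in LPS (log2 0.52, implied SE 0.082). B3gnt7, an enzyme of keratan sulfate, fell to 0.0981 FPKM in LPS+Dex, against 0.276 FPKM in LPS (log2 −1.49, implied SE 0.35; −0.22 on the log2(FPKM + 1) scale), from a low level. B3gnt5, which starts the lacto-series glycolipids, stood at 0.405 FPKM in LPS+Dex and 0.523 FPKM in LPS (log2 −0.37, implied SE 0.22) and was not called. B3gnt9-ps, now B3gnt9 in RefSeq, stood at 0.298 FPKM in LPS+Dex and 0.244 FPKM in LPS (log2 0.29, implied SE 0.41) and was not called; its locus also holds D230025D16Rik, at 12.1 FPKM in LPS+Dex and 6.01 FPKM in LPS. B3gnt4 and B3gnt6 had no test, at 0.0403 FPKM or less.

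Among the fucosyltransferases, Fut8 led. It adds the core fucose of N-glycans and fell to 8.75 FPKM in LPS+Dex, against 14.3 FPKM in LPS (log2 −0.71, implied SE 0.073). Fut11, a relative of the α1,3-fucosyltransferases, rose to 1.70 FPKM in LPS+Dex, against 1.35 FPKM in LPS (log2 0.34, implied SE 0.099). The other relative, Fut10, stood at 1.04 FPKM in LPS+Dex and 0.986 FPKM in LPS (log2 0.079, implied SE 0.17) and was not called. The Lewis x and sialyl Lewis x enzymes of leukocytes were scarce and not called. Fut4 stood at 1.13 FPKM in LPS+Dex and 1.11 FPKM in LPS (log2 0.033, implied SE 0.11). Fut7 stood at 0.230 FPKM in LPS+Dex and 0.326 FPKM in LPS (log2 −0.50, implied SE 0.31). Fut1 and Fut2, which make the H antigen, were listed at 0 in both groups, as were Fut9 and Fut4-ps1.

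The Gcnt genes, whose enzymes start branches, gave no call. Gcnt2, the enzyme of I-branches, stood at 2.98 FPKM in LPS+Dex and 3.18 FPKM in LPS (log2 −0.090, implied SE 0.073). Gcnt1, the core 2 enzyme that prepares O-glycans for selectin ligands, stood at 0.152 FPKM in LPS+Dex and 0.187 FPKM in LPS (log2 −0.30, implied SE 0.29). Gcnt3 was listed at 0 in both groups, and Gcnt4 and Gcnt7 had no test at 0.0307 FPKM or less.

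**Figure D3:**
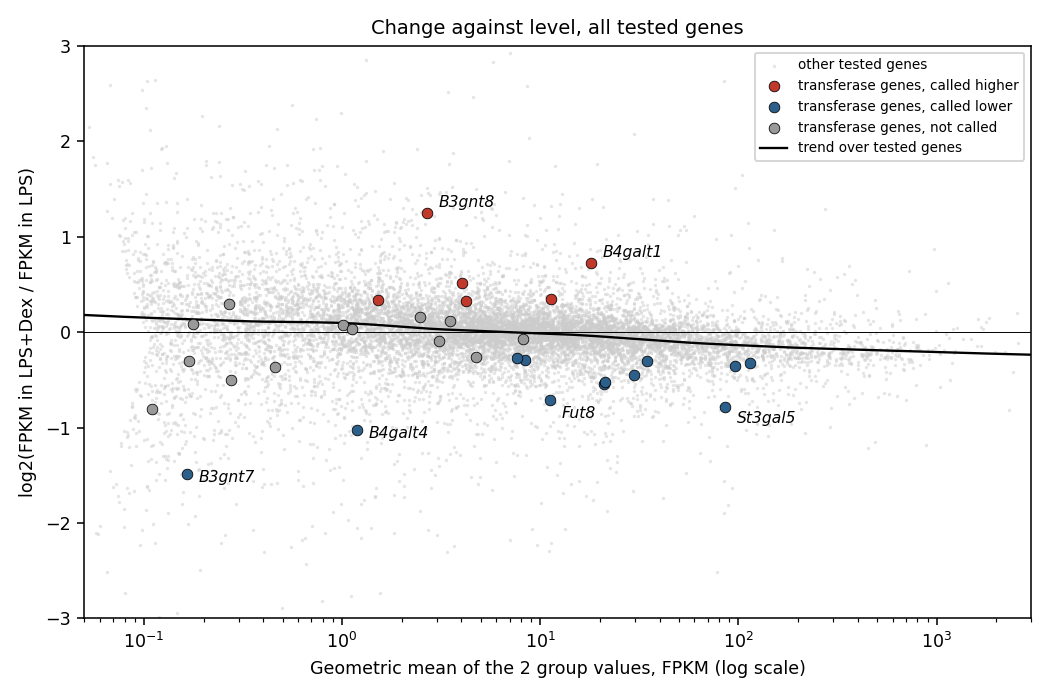
log2 ratio of LPS+Dex over LPS against the geometric mean of the group values (FPKM, log axis) for tested genes in grey and the 31 transferase genes in colour; the line is the trend over all tested genes, and 20 tested genes lie outside the axes. The abundant members lie mostly below the trend, St3gal5 lowest among those over 20 FPKM, while B4galt1 and B3gnt8 lie above it.

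Over all tested genes the ratio depended on level. The trend of the log2 ratio on level stood at 0.096 at 1 FPKM, −0.013 at 10 FPKM and −0.14 at 100 FPKM. With the trend removed, 6 genes of the family were called higher and 12 lower, where 18.9% of all genes were then higher and 20.8% lower, and each of the 18 called genes kept its call and direction. The log2 ratio was then −0.65 for St3gal5, −0.18 for B4galt5, −0.22 for B3gnt2 and 0.77 for B4galt1. The median over the 31 genes was −0.22, against 0.0037 over all tested genes.

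The number of coding exons varied between and within enzyme classes. In GENCODE M21 (longest coding transcript per gene) the coding sequences of the sialyltransferases and β1,4-galactosyltransferases were spread over 4 to 11 exons. Of the 9 B3gnt genes 6 have a single coding exon and 3 have 2. Fut8, with 9 coding exons, differs from Fut4, which has 1. Coding lengths ran from 906 bases in St6galnac4 to 1725 bases in Fut8. Of the family, 10 genes share their locus in the table with another gene, 6 of them tested and 4 called: B4galt1, St3gal4, St3gal5 and St6galnac4. Next to St3gal4, Dcps stood at 9.43 FPKM in LPS+Dex and 9.78 FPKM in LPS.

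The called genes of sialic acid metabolism were higher, enzymes of synthesis and of breakdown among them. Over all tested genes 17.7% rose and 25.2% fell. Of 7 tested genes of sialic acid synthesis, transport and breakdown, 4 rose, 0 fell and 3 were not called in the authors' deposited table, with a median log2 ratio of 0.21. Cmas, which activates sialic acid to its CMP donor, rose to 15.2 FPKM in LPS+Dex, against 12.3 FPKM in LPS (log2 0.31, implied SE 0.060). Nanp, the phosphatase of the preceding step, rose to 2.72 FPKM in LPS+Dex, against 2.04 FPKM in LPS (log2 0.42, implied SE 0.13). Npl, a lyase that breaks sialic acid down and so does not supply it, rose most, to 3.84 FPKM in LPS+Dex, against 2.58 FPKM in LPS (log2 0.57, implied SE 0.11). Renbp, an enzyme of N-acetylglucosamine catabolism, also rose. The first enzyme, Gne, stood at 0.973 FPKM in LPS+Dex and 0.839 FPKM in LPS (log2 0.21) and was not called, nor was Nans, the most abundant uncalled gene of the list, at 15.7 FPKM in LPS+Dex and 15.8 FPKM in LPS. Whether the 2 lists differ was not tested.

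Of 8 genes of fucose donors, fucose transport and protein O-fucosylation, 2 rose, 1 fell and 5 were not called. For this list and the next, the shares over all tested genes were 17.7% higher and 25.2% lower. Gmds, the first step of GDP-fucose synthesis, fell to 5.39 FPKM in LPS+Dex, against 6.40 FPKM in LPS (log2 −0.25, implied SE 0.080). Slc35c2, a Golgi transporter-like gene, rose to 6.58 FPKM in LPS+Dex, against 5.36 FPKM in LPS (log2 0.30, implied SE 0.081). Pofut2, an O-fucosyltransferase gene, was not called at 28.3 FPKM in LPS+Dex and 27.5 FPKM in LPS. Of 13 genes of galactose and N-acetylglucosamine donors, 2 rose, 3 fell and 8 were not called. Gfpt1, the entry enzyme of the hexosamine pathway, fell to 8.07 FPKM in LPS+Dex, against 14.2 FPKM in LPS (log2 −0.82, implied SE 0.049). Its paralog Gfpt2 fell to 0.0951 FPKM in LPS+Dex, against 0.184 FPKM in LPS (log2 −0.95, implied SE 0.35). Galt, of galactose use, rose to 3.13 FPKM in LPS+Dex, against 2.53 FPKM in LPS (log2 0.30, implied SE 0.096). Slc35a3, the N-acetylglucosamine donor transporter, was not called at 11.2 FPKM in LPS+Dex and 12.0 FPKM in LPS.

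**Figure D4:**
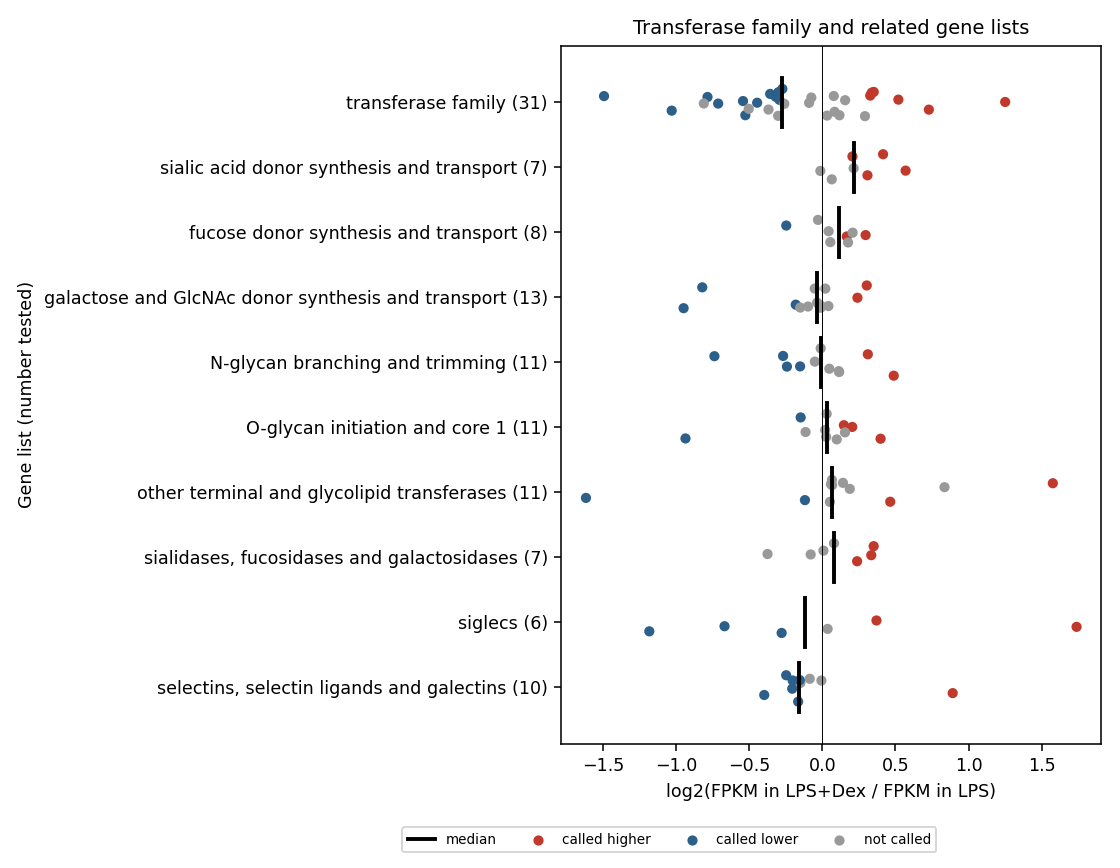
log2 ratio of LPS+Dex over LPS for each tested gene of the transferase family (top) and of 9 related lists, coloured by call, with list medians as black bars. The family's median is −0.27 and that of the sialic acid list 0.21; both hold called and uncalled genes.

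The enzymes that build the chains under these ends changed in both directions, as did all tested genes, of which 17.7% rose and 25.2% fell. Of 11 tested genes of N-glycan trimming and branching, 2 rose, 4 fell and 5 were not called. Mgat4a, a branching enzyme, fell to 8.88 FPKM in LPS+Dex, against 14.8 FPKM in LPS (log2 −0.74, implied SE 0.049). Mgat5, which starts the branch that B3gnt2 and B3gnt8 extend, rose to 4.09 FPKM in LPS+Dex, against 2.91 FPKM in LPS (log2 0.49, implied SE 0.074). Man2a1, a Golgi mannosidase gene, was not called at 44.2 FPKM in LPS+Dex and 45.8 FPKM in LPS. Of 11 tested genes of O-glycan initiation and core 1, 3 rose, 2 fell and 6 were not called. Galnt6 rose to 11.6 FPKM in LPS+Dex, against 8.77 FPKM in LPS (log2 0.40, implied SE 0.060). Galnt3 fell to 0.302 FPKM in LPS+Dex, against 0.577 FPKM in LPS (log2 −0.94, implied SE 0.18). Both encode enzymes that start O-glycans. C1galt1c1, the chaperone of the core 1 enzyme, was not called at 10.2 FPKM in LPS+Dex and 10.1 FPKM in LPS.

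Among 11 tested genes of other terminal and glycolipid transferases, 2 rose, 2 fell and 7 were not called. For this list and the next, 17.7% of all tested genes rose and 25.2% fell. B4galnt2, the enzyme of the Sda antigen, rose to 0.133 FPKM in LPS+Dex, against 0.0446 FPKM in LPS (log2 1.58, implied SE 0.41). A4galt, the globoside enzyme, fell to 0.0593 FPKM in LPS+Dex, against 0.182 FPKM in LPS (log2 −1.62, implied SE 0.61). Both are near the lowest tested levels. Ggta1, which makes the α-Gal epitope in competition with sialic acid, was not called at 52.5 FPKM in LPS+Dex and 50.1 FPKM in LPS, but was called higher with the trend on level removed (log2 0.17). Of 7 tested sialidase, fucosidase and galactosidase genes, which remove such ends, 3 rose, 0 fell and 4 were not called. Neu1, the lysosomal sialidase gene, rose to 18.3 FPKM in LPS+Dex, against 14.4 FPKM in LPS (log2 0.35, implied SE 0.050). Gla, the lysosomal α-galactosidase gene, was not called at 45.2 FPKM in LPS+Dex and 47.8 FPKM in LPS.

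Of 6 tested siglec genes, whose proteins bind the sialic acids, 2 rose, 3 fell and 1 was not called. For this list and the next, 17.7% of all tested genes rose and 25.2% fell. Cd33 rose to 21.7 FPKM in LPS+Dex, against 6.49 FPKM in LPS (log2 1.74, implied SE 0.067). Siglecg, a B cell siglec, fell to 0.0738 FPKM in LPS+Dex, against 0.168 FPKM in LPS (log2 −1.18, implied SE 0.43). Siglec1, the macrophage sialoadhesin gene, was not called at 41.9 FPKM in LPS+Dex and 40.9 FPKM in LPS, but was called higher with the trend on level removed (log2 0.13). Of 10 tested genes of selectins, their ligands and galectins, 6 fell and 3 were not called. Spn, a sialylated mucin of leukocytes, fell to 7.28 FPKM in LPS+Dex, against 9.58 FPKM in LPS (log2 −0.40, implied SE 0.061). Lgals3, the galectin-3 gene, was not called at 1514 FPKM in LPS+Dex and 1680 FPKM in LPS. With the trend on level removed, 2 genes of this list were called lower in place of 6.

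A pair of routes was set out after the values were seen. In the ganglioside route the early steps fell: Ugcg, the glucosylceramide synthase gene, reached 19.6 FPKM in LPS+Dex, against 21.3 FPKM in LPS (log2 −0.12, implied SE 0.049, q = 0.0382 in the authors' deposited table), and B4galt5, B4galt6 and St3gal5 fell as given above. The later steps B4galnt1, at 9.94 FPKM in LPS+Dex and 9.54 FPKM in LPS, B3galt4, at 3.64 FPKM in LPS+Dex and 3.48 FPKM in LPS, and St3gal2 were not called. Ugcg lost its call with the trend on level removed (log2 −0.072). In the sialyl Lewis x route B4galt1 rose, St3gal4 and the carrier protein gene Selplg fell, and C1galt1, Gcnt1, St3gal6, Fut4 and Fut7 were not called. Selplg, which encodes the P-selectin ligand, stood at 39.6 FPKM in LPS+Dex and 47.0 FPKM in LPS (log2 −0.25, implied SE 0.048).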

How the data were processed

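RNA of 6 samples in 2 groups was made into stranded libraries and sequenced in paired 101-base reads, per the labels' protocols. The authors deposited 1 FPKM value per gene and group, with a log2 fold change, a test statistic, a p-value and a q-value, per the file headers. The submitters' processing notes name CASAVA, TopHat 1.4.1, Cufflinks 2.0.2 and the build mm9. Roles, annotation, strand setting of the counting, scaling between libraries and the way 3 samples became 1 value were not given in the sources used here. An FPKM value depends on the transcript models and on the library total, so a few very abundant genes can shift all other values.

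From the deposited FPKM, log2 ratios of LPS+Dex over LPS were recomputed without a pseudocount, since the deposited log2 column holds stand-ins where a value is 0. Calls are the authors' deposited q-value under 0.05. A level trend was fitted by lowess (fraction 0.3) over 11745 genes with a standard error. The procedure was tested on simulated data with a linear trend and few changed genes. In the deposited data 42.9% of tested genes were called, so the simulation cannot show whether the trend takes up real change. Table starts were shifted by 1 base to a 1-based scale. Python 3.11.15, pandas 2.3.3, NumPy 2.4.6, SciPy 1.17.1, statsmodels 0.14.6 and Matplotlib 3.10.9 were used.

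The genes of the family and the 9 related and 8 marker lists were chosen with earlier results of these data known. Every tested gene of the family is named; of each related list, the called genes that changed most, up and down, and the most abundant uncalled gene are, and other genes of the lists and the routes were added after their values were seen. Alternatives were other q thresholds, Bonferroni adjustment, a 1.5-fold minimum, a 1 FPKM minimum, pseudocounts, centring, removal of the level trend and, added after seeing the data, leaving out genes that share a locus or B3gnt1. A gene of the related lists and one of the marker lists are not reported here. Adgre1 is listed as Emr1, Siglecf and Ly6g were not matched, and Lyz2 is listed at 0 with a status of too much data.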

Additional observations from a re-analysis of the deposited data

How the results depend on the processing

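The direction of each of the 18 called genes held under every alternative run. With a minimum change of 1.5-fold the calls came to 2 higher and 4 lower, in place of 6 and 12. The median log2 ratio of the family, −0.27, was −0.17 over genes with at least 1 FPKM in a group and −0.081 on the log2(FPKM + 1) scale. Bonferroni adjustment removed the calls of St8sia4, B3gnt3, B3gnt7 and Fut11. With the trend on level removed, 3 uncalled genes changed sign: St6gal1 (−0.050), Fut4 (−0.059) and Fut10 (−0.017). Genes called lower then numbered 1 in the O-glycan list, 1 in the list of other terminal transferases and 2 among selectins, their ligands and galectins, in place of 2, 2 and 6. Genes called higher then numbered 3 in the N-glycan list, 3 in the list of other terminal transferases and 3 among siglecs, in place of 2 in each, and 4 among sialidases, fucosidases and galactosidases in place of 3. The 4 genes added are Man1b1, Ggta1, Siglec1 and Glb1. Of the macrophage markers, 4 were then called higher and 0 lower, in place of 3 and 1, and the stromal marker Dcn lost its call. The log2(FPKM + 1) scale moved 8 single genes by more than their implied SE. No paired analysis was possible because the table holds 1 value per gene and group, and for the same reason no replicate could be left out. The depth of the libraries is unknown, so no counting error can be given for genes under 1 FPKM such as B3gnt7.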
